A study of Mus musculus with 10 samples.

Results

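The 41 genes described here encode DNA repair proteins of these pathways: nucleotide excision repair (14 genes), base excision and single-strand break repair (8), mismatch repair (4), direct reversal (1), translesion synthesis (4), homologous recombination (2), damage signalling kinases (4) and non-homologous end joining (4). They were chosen by gene symbol, in colon tumors begun by a carcinogen that forms DNA adducts. No expression value entered the rule, but the choice was made with earlier results of these data known. Each gene was found through the accession that the array files give its probes. Of the 41 genes, 39 were measured, out of 14508 genes tested in all. No probe was matched to Atr or Ercc6, which were not analysed here. All 39 measured genes passed the filter on dim probes, and each was above background on all 7 tumor arrays.

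RNA of 10 samples was hybridised to 10 oligonucleotide arrays of 1 colour each. The 7 tumors were tubular adenomas of the colon that the labels give as carrying a dominant active mutant of Ctnnb1, the gene of beta-catenin, and the 3 normals were adjacent colon epithelium labelled wild type for Ctnnb1. Tumors and normals alike came from CYP1A-humanized mice (human CYP1A genes in a mouse) fed AIN93M diet. At 6 weeks of age these animals received 2 gavage doses of PhIP, a heterocyclic amine of cooked meat, at 100 mg/kg, followed by 1.5% DSS (dextran sulfate sodium, which injures the colon epithelium) in the drinking water for 1 week, and samples were taken at 16 weeks of age. The normals had therefore had the same exposure as the tumors, and no unexposed tissue was analysed here. Mouse 41 (male) and mouse 42 (female) each gave 3 tumors and 1 normal, and mouse 43 (male) gave 1 tumor and 1 normal. The 7 tumors came from 3 animals and are not 7 independent animals.

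PhIP is activated by CYP1A enzymes and binds guanine as a bulky adduct. Nucleotide excision repair cuts out such bulky lesions as part of a short strand, base excision repair removes single altered bases, and mismatch repair corrects errors that the replicating polymerase leaves behind. Translesion polymerases copy past unrepaired damage, direct reversal strips alkyl groups from guanine, and double-strand breaks are joined by homologous recombination or by end joining under the control of damage signalling kinases.

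The share of gene probes above background was 57.7% to 66.7% per array. Over all genes a difference between tumors and normals had a median SE of 0.11 on the log2 scale, a precision set by the number of arrays. Colon epithelial markers were above background in both tissues. Of the 11 tested, 7 were lower in tumors (63.6%, against 23.8% of all genes), among them the transcription factors Cdx1 and Cdx2. Only 1, Krt18, was higher (9.09%, against 25.9%). The summed linear intensity of the 11 was 106292 to 145891 in tumors, against 145787 to 149069 in normals. The tumor of mouse 43 and the normal of mouse 42 stood apart, with a mean of 2.25 on each array for stratified squamous genes (log2 deviation from each gene's mean over the arrays), against -0.80 to -0.27 on the others. All 9 beta-catenin target genes tested were higher in tumors, with summed intensities of 21406 to 41668 in tumors, against 3329 to 6705 in normals. Tumor 2 of mouse 41, tumors 1 and 2 of mouse 42 and the tumor of mouse 43 were scanned in a later session that held no normal.

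Most repair genes did not pass the test between tumors and normals, and those that did were mainly higher in tumors. A gene was called where the limma p-value, adjusted by Benjamini-Hochberg over all 14508 genes, was under 0.05 with the mouse as a block. By that rule 14 of the 39 members (35.9%) were higher in tumors, against 25.9% of all genes tested, and 2 members (5.13%) were lower, against 23.8% of all genes. The other 23 did not pass. In all, 41.0% of the members and 49.6% of all genes were called. The median difference, tumor minus normal, was 0.12 on the log2 scale over the members and 0.01 over all genes, and 28 members had a positive and 11 a negative difference. Every tumor array lay above every normal array in 11 members, namely 10 of those called higher and Rad18, which did not pass, against 21.4% of all genes. Exo1, among these 10, met the filter on dim probes only through the tumors. Among genes above background on all 10 arrays, which leaves Exo1 out, 13 of 38 members were higher (34.2%, against 26.1% of all genes). There 2 were lower (5.26%, against 24.8%). Every tumor array lay below every normal array in both members called lower, Ung and Ddb2, against 20.0% of all genes. In a tissue sample, fewer cells of a type and less RNA per cell cannot be told apart.

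**Figure D1:**
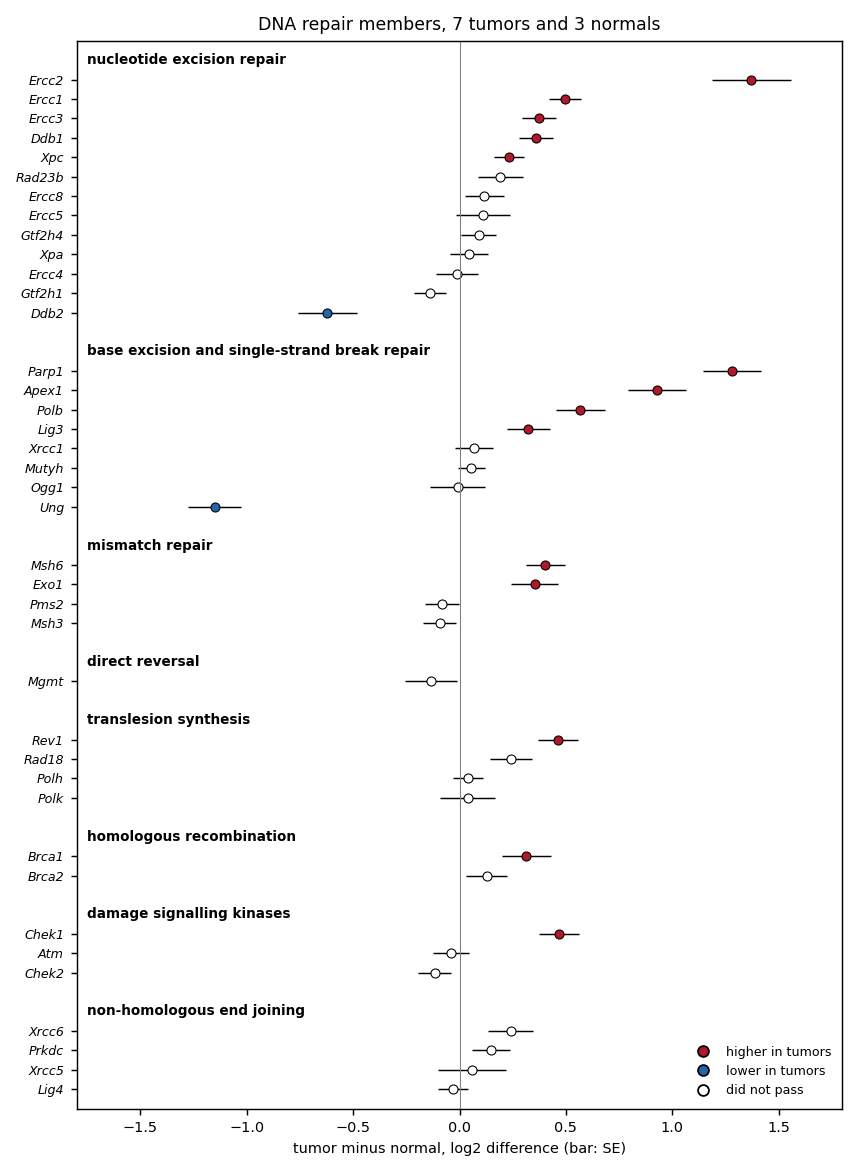
Tumor minus normal difference of each of the 39 measured members on the log2 scale (horizontal axis), grouped by pathway, with the standard error as a bar and 7 tumors and 3 normals behind each point. Ercc2, Parp1 and Apex1 lie farthest to the right, Ung and Ddb2 farthest to the left, and most of the other points lie near 0.

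Nucleotide excision repair had 13 measured members. Higher in tumors were 5 (38.5%, against 25.9% of all genes), namely Ercc2, Ercc1, Ercc3, Ddb1 and Xpc. Lower was 1, Ddb2 (7.69%, against 23.8%). These genes take part in damage recognition, helix opening and incision. The median difference of the 13 was 0.12, equal to that of all members at this rounding.

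Lesions are found by Xpc, with its partner Rad23b, and by the UV-damage binding complex of Ddb1 and Ddb2. The log2 intensity of Ddb2 in tumors was 7.40 at the lowest, 7.80 at the median and 8.18 at the highest, against 8.24, 8.42 and 8.59 in the normals of mouse 41, mouse 42 and mouse 43. No tumor reached the lowest normal, and the tumor of mouse 43 was the lowest array. Ddb2 was 1.54-fold lower in tumors (log2 difference -0.62 ± 0.14, SE; limma adjusted p = 0.00529). All 4 Ddb2 probes were lower in tumors and passed the test, with differences between -0.68 and -0.49.

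Ddb1, the large subunit of the same complex and a scaffold of ubiquitin ligases, differed in the other direction. Its log2 intensity was 11.88, 12.17 and 12.25 (lowest, median and highest) in tumors, against 11.75, 11.76 and 11.78 in the 3 normals. All tumors lay above all normals, at a difference of 0.36 ± 0.08 (adjusted p = 0.00503), and the call was lost without mouse 42 (0.31). Xpc was at 8.12, 8.24 and 8.31 in tumors, against 8.05, 7.97 and 7.96 in the normals of mouse 41, 42 and 43. These groups did not overlap either, but the difference was small, 0.23 ± 0.07 (adjusted p = 0.0216). The Xpc call was lost without any 1 of the 3 mice (differences of 0.27, 0.21 and 0.22 without mouse 41, 42 and 43). Without the normal of mouse 42 alone (0.21), or the normal or the tumor of mouse 43 alone (0.22 for each), it was lost too. With the mouse as a block, these give the same difference as leaving out that mouse and are not further results. The sign of Xpc turned when spots were summarised by their median pixel, not their mean (-0.063). The second Xpc probe differed by 0.20 ± 0.12 and did not pass. Rad23b had a difference of 0.19 ± 0.11 that did not pass (adjusted p = 0.163).

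The helix around a lesion is opened by TFIIH, the general transcription factor whose helicases are Ercc2 (XPD) and Ercc3 (XPB). Ercc2 had the largest difference among the 39 members. The probe of highest mean intensity was at 8.14, 8.66 and 8.95 in tumors, against 7.22, 7.44 and 6.86 in the normals of mouse 41, 42 and 43. All 7 tumors were above all 3 normals, with a 2.59-fold difference (log2 1.37 ± 0.19, adjusted p = 0.000352). The mean over the tumors of a mouse minus its own normal was 1.15 in mouse 41, 1.22 in mouse 42 and 1.94 in mouse 43.

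The 3 Ercc2 probes disagreed, however. The probe mMC017760 was slightly lower in tumors, at 7.02 to 7.31 in tumors against 7.39 to 7.43 in normals, a difference of -0.21 ± 0.07 that also passed (adjusted p = 0.0405). The probe mMA031619, above background on 6 of the 10 arrays, differed by 0.14 ± 0.06 and did not pass (adjusted p = 0.0903). With the mean over its probes, Ercc2 differed by 0.43 in place of 1.37. The direction for Ercc2 therefore depends on the probe, and which probes read which transcripts was not tested.

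**Figure D2:**
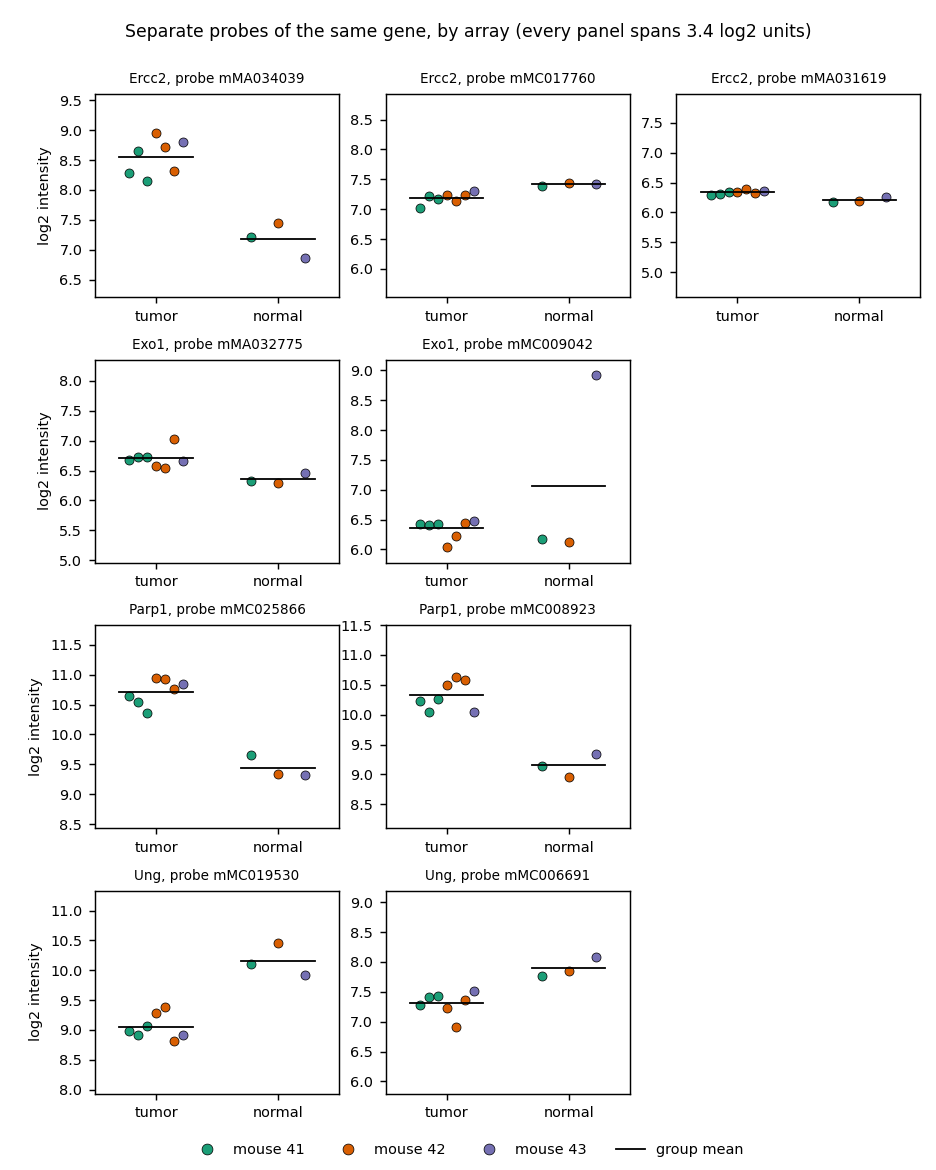
Log2 intensity (vertical axis, the same span in every panel) of the separate probes of Ercc2, Exo1, Parp1 and Ung, with a point per array colored by mouse, tumors left of normals, and the group mean as a line. Both Parp1 probes are higher and both Ung probes lower in tumors, while the Ercc2 probes move in different directions and 1 array stands apart for the second Exo1 probe.

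Ercc3 was at 8.96, 9.13 and 9.23 in tumors, against 8.71, 8.72 and 8.84 in normals, without overlap (difference 0.37 ± 0.08, adjusted p = 0.00388). The TFIIH core subunits Gtf2h1 and Gtf2h4 did not pass, with differences of -0.14 ± 0.08 and 0.09 ± 0.08. Gtf2h1 was below its own normal in all 7 tumors and was called lower as the mean of its probes (-0.24, adjusted p = 0.0489), but its sign turned with the spot median (0.22) and in the deposited table (0.23).

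Incision on the 5′ side of the lesion is made by the nuclease of Ercc1 and Ercc4 (XPF), and on the 3′ side by Ercc5 (XPG). Ercc1 was at 10.27, 10.35 and 10.41 in tumors, against 9.89, 9.91 and 9.68 in the normals of mouse 41, 42 and 43. The tumors lay in a narrow band of 0.14 above all normals, at a difference of 0.50 ± 0.07 (1.41-fold, adjusted p = 0.000624). All 4 Ercc1 probes were higher and passed, with differences from 0.38 to 0.50. Its catalytic partner Ercc4 had a difference of -0.01 ± 0.10 and Ercc5 one of 0.11 ± 0.13. Xpa, which verifies the lesion, and Ercc8, which acts in transcription-coupled repair, had differences of 0.04 ± 0.09 and 0.12 ± 0.09. None of these 4 genes passed, and their adjusted p-values lay between 0.325 and 0.932.

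Base excision and single-strand break repair, with 8 members, held the lowest p-values of the members in each direction. Parp1, Apex1, Polb and Lig3 were higher in tumors (50%, against 25.9% of all genes). Ung was lower (12.5%, against 23.8%). The pathway starts with glycosylases that remove an altered base. Ung removes uracil. Its log2 intensity was 8.82, 8.98 and 9.38 in tumors, against 10.11, 10.45 and 9.91 in the normals of mouse 41, 42 and 43. The highest tumor was well under the lowest normal, and Ung was 2.22-fold lower in tumors (difference -1.15 ± 0.13, adjusted p = 0.000123). The difference was -1.12 in mouse 41, -1.29 in mouse 42 and -0.995 in mouse 43. The second Ung probe was also lower, by -0.54 ± 0.11 (adjusted p = 0.00302). The other glycosylases, Ogg1 for oxidised guanine and Mutyh for the adenine opposite it, had differences of -0.01 ± 0.13 and 0.06 ± 0.06 and did not pass.

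Apex1 is the endonuclease that cuts the abasic site left by a glycosylase. It was at 11.92, 12.29 and 12.61 in tumors, against 11.51, 11.21 and 11.35 in normals. The groups did not overlap, and Apex1 was 1.90-fold higher in tumors (difference 0.93 ± 0.14, adjusted p = 0.000571). The difference was 0.59 in mouse 41, 1.21 in mouse 42 and 1.03 in mouse 43.

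Parp1 binds strand breaks and recruits repair factors by building poly(ADP-ribose) chains. It was at 10.37, 10.76 and 10.94 in tumors, against 9.66, 9.34 and 9.32 in the normals of mouse 41, 42 and 43. Every tumor lay above every normal, with a 2.43-fold difference (log2 1.28 ± 0.14, adjusted p = 0.000112). The difference was 0.85 in mouse 41, 1.54 in mouse 42 and 1.52 in mouse 43, and the second Parp1 probe gave 1.17 ± 0.14 (adjusted p = 0.00021).

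Polb, the polymerase that fills the gap, was at 9.69, 10.04 and 10.19 in tumors, against 9.45, 9.38 and 9.41 in normals. The groups did not overlap, and the difference was 0.57 ± 0.12 (1.48-fold, adjusted p = 0.00312). Lig3, the ligase that seals the nick, was at 8.41, 8.59 and 8.79 in tumors, against 8.34, 8.19 and 8.43 in normals. Tumors and normals overlapped, although each tumor was above its own normal (difference 0.32 ± 0.10, adjusted p = 0.0243). The Lig3 call was lost without any 1 of the 3 mice (differences of 0.40, 0.25 and 0.32 without mouse 41, 42 and 43). Without the normal of mouse 42 alone (0.25), or the normal or the tumor of mouse 43 alone (0.32 for each), the same differences came back and it was lost too. The second Lig3 probe differed by 0.03 ± 0.07. Xrcc1, the scaffold to which Lig3 binds, had a difference of 0.07 ± 0.09 that did not pass (adjusted p = 0.554).

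**Figure D3:**
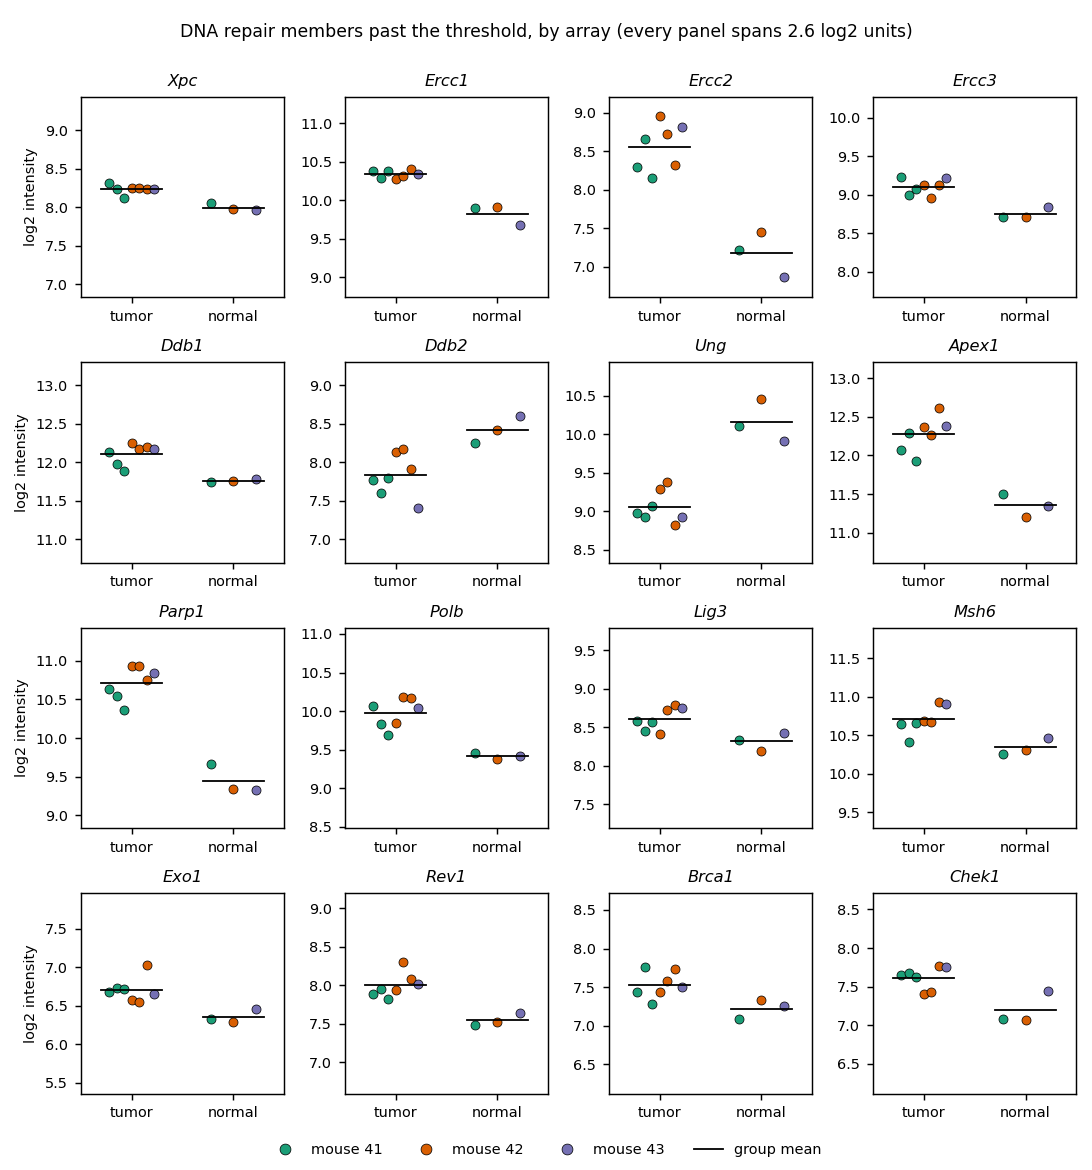
Log2 intensity (vertical axis, every panel spanning the same range) of the 16 members past the threshold, with a point per array colored by mouse, tumors left of normals, and the group mean as a line. Ercc2, Parp1, Apex1 and Ung show gaps between tumors and normals that are wide beside the spread within each group, while Brca1, Chek1, Lig3 and Msh6 overlap.

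Mismatch repair had 4 members, of which Msh6 and Exo1 were higher in tumors (50%, against 25.9% of all genes). Exo1 is counted here although only its tumor arrays brought it past the filter on dim probes. Msh3 and Pms2 did not pass. Msh6, which helps to find mispaired bases, was at 10.42, 10.68 and 10.93 in tumors, against 10.26, 10.31 and 10.46 in normals. The lowest tumor fell below the highest normal, but each tumor exceeded its own normal, and the difference was 0.40 ± 0.09 (1.32-fold, adjusted p = 0.00551). The second Msh6 probe differed by 0.21 ± 0.12 and did not pass, and with the spot median Msh6 differed by 0.15 and was not called; without mouse 42 it differed by 0.37 and was not called either.

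Exo1, the exonuclease that removes the strand with the error, was a dim gene: it was above background on all 7 tumors and on 1 of the 3 normals. Its log2 intensity was 6.55, 6.67 and 7.02 in tumors, against 6.32, 6.29 and 6.45 in normals, without overlap (difference 0.35 ± 0.11, adjusted p = 0.0249). The second Exo1 probe was at 8.91 in the normal of mouse 43 and at 6.05 to 6.48 on the other 9 arrays, and had a difference of -0.47 ± 0.38. The mean of both probes was -0.059. The Exo1 call was lost without the normal of mouse 41 (0.34) or the normal of mouse 42 (0.31). Leaving out either of these mice gave the same differences, and the call was lost there too. Msh3, which helps to find small loops, and Pms2, which nicks the faulty strand, had differences of -0.09 ± 0.08 and -0.08 ± 0.08. Both Msh3 probes had negative differences, and neither passed.

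Mgmt, the direct reversal enzyme that takes alkyl groups off guanine, was at 6.75, 7.00 and 7.23 in tumors, against 7.19, 7.04 and 7.11 in normals. The groups overlapped and Mgmt did not pass (difference -0.13 ± 0.12, adjusted p = 0.389).

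Among the 4 translesion synthesis genes only Rev1 passed, as higher in tumors (25%, against 25.9% of all genes). Rev1, the polymerase that also serves as the platform for other translesion polymerases, was at 7.82, 7.95 and 8.30 in tumors, against 7.48, 7.52 and 7.64 in normals. All tumors lay above all normals (difference 0.46 ± 0.09, 1.38-fold, adjusted p = 0.00319). Rad18, the ubiquitin ligase that marks PCNA to call these polymerases in, was at 8.24, 8.34 and 8.58 in tumors, against 8.03, 8.21 and 8.19 in the normals of mouse 41, 42 and 43. The Rad18 groups did not overlap, yet its difference of 0.24 ± 0.10 did not pass (adjusted p = 0.066). Rad18 passed under 5 alternatives: without tumor 1 of mouse 42 (0.27), with the mouse left out of the model (0.24) or as a random block (0.24), with median scaling (0.44) and with a block for scan session (0.34). Its second probe differed by -0.0029 ± 0.09. The damage-tolerant polymerases Polh and Polk had differences of 0.04 ± 0.07 and 0.04 ± 0.13.

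Brca1 and Brca2 represent homologous recombination, in which Brca1 helps to start the resection of a break and Brca2 acts in the strand exchange that follows. Brca1 was at 7.28, 7.51 and 7.76 in tumors, against 7.08, 7.33 and 7.25 in the normals of mouse 41, 42 and 43. The groups overlapped, each tumor exceeded its own normal, and Brca1 passed narrowly (difference 0.31 ± 0.11, adjusted p = 0.0449). That call was lost without the normal (0.26) or tumor 1 of mouse 41 (0.32). It was also lost without the normal (0.35), tumor 2 (0.32) or tumor 3 of mouse 42 (0.29), and without the normal or the tumor of mouse 43 (0.33 for each). The same held without any 1 of the 3 mice (0.26, 0.35 and 0.33 without mouse 41, 42 and 43), which repeats the differences without the normal of each. Brca2 was at 7.10, 7.17 and 7.82 in tumors, against 7.09, 7.23 and 7.35 in normals, and did not pass (0.13 ± 0.10, adjusted p = 0.294).

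Of the 3 damage signalling kinases measured, Chek1 was higher in tumors (33.3%, against 25.9% of all genes). Chek1 is the checkpoint kinase that acts at stalled replication forks. It was at 7.41, 7.65 and 7.76 in tumors, against 7.08, 7.06 and 7.44 in the normals of mouse 41, 42 and 43. Tumors 1 and 2 of mouse 42 lay just under the normal of mouse 43, and each tumor exceeded its own normal (difference 0.47 ± 0.10, 1.38-fold, adjusted p = 0.00323). The Chek1 call was lost without mouse 41 (0.41). The second Chek1 probe was also higher, by 0.27 ± 0.08 (adjusted p = 0.0222). Atm, the kinase that answers double-strand breaks, and Chek2, the kinase downstream of it, had differences of -0.04 ± 0.08 and -0.12 ± 0.08 and did not pass.

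None of the 4 end joining genes passed limma's adjusted threshold. At an unadjusted p under 0.05 there was 1, Xrcc6, which with Xrcc5 forms the Ku ring that binds broken ends. Xrcc6 was at 8.14, 8.29 and 8.55 in tumors, against 8.09, 8.01 and 8.17 in normals, and differed by 0.24 ± 0.11 (adjusted p = 0.0874). It passed with median scaling (0.44) and with a block for scan session (0.36), and its second probe differed by 0.06 ± 0.09. Prkdc, the kinase that Ku recruits, Xrcc5 and the ligase Lig4 had differences of 0.15 ± 0.09, 0.06 ± 0.16 and -0.03 ± 0.07.

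E2F factors drive many replication and repair genes of S phase, so promoters were searched for 4 E2F motifs: TTTCCCGC, TTTGGCGC, TTTCGCGC and TTTGCCGC. Both strands of RefSeq promoters (250 bases before to 50 after the start, GRCm38.p6) were read, and TTTGGCGC and TTTCGCGC on opposite strands overlap in Msh3. A promoter was listed for 35 of the 41 genes, Atr and Ercc6 included, of which 5 (14.3%) held a motif, against 2.6% of all 27025 genes with a promoter. Of these 5, Msh6 was higher in tumors and the other 4 did not pass. A motif was in 1 of the 10 members called higher that had a promoter (10%) and in 4 of the 22 that did not pass (18.2%). The windows are shown because they place the motif in genes that share it but not the call; capitals mark the motif, read 5′ to 3′ on the gene's strand.
Msh6 (chr17:87975049-87975079, plus strand): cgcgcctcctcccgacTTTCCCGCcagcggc
Msh3 (chr13:92355182-92355221, minus strand): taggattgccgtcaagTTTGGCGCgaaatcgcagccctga
Brca2 (chr5:150522437-150522476, plus strand): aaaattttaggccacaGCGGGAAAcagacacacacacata
Chek2 (chr5:110839815-110839854, plus strand): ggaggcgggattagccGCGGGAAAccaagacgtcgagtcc
Xrcc6 (chr15:82016307-82016346, plus strand): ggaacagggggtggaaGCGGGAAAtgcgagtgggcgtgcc
The motif in Msh6 begins 15 bases after the start, and those in Xrcc6, Chek2, Brca2 and Msh3 begin 46, 152, 168 and 202 bases before it. These are matches of letters, not binding sites. Among proliferation markers with a promoter, 5 of 17 (29.4%) held a motif. Among other repair genes with a promoter, from the wider list below, 9 of 67 (13.4%) did, near the share of the members.

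A wider list of 86 other repair genes gave 74 that were tested, of which 49 did not pass. Higher in tumors were 19 (25.7%, against 25.9% of all genes, so no more than the background), and 6 were lower (8.11%, against 23.8% of all genes). Their median difference was 0.10. The 4 of lowest p that were higher were Cetn2, the centrin bound to Xpc (0.91 ± 0.11, adjusted p = 0.000207), Trp53bp1, a scaffold at double-strand breaks (0.83 ± 0.10, adjusted p = 0.00023), Tdg, a thymine glycosylase (0.62 ± 0.09, adjusted p = 0.000615), and Mad2l2, a subunit of polymerase zeta (0.71 ± 0.12, adjusted p = 0.00147). All 7 tumors lay above all 3 normals in each of these. The 4 of lowest p that were lower were Rad51d, a homologous recombination gene (-0.55 ± 0.07, adjusted p = 0.00031), the helicase Wrn (-0.29 ± 0.08, adjusted p = 0.0115), the polymerase Polm of end joining (-0.61 ± 0.14, adjusted p = 0.00567), and Nbn, a subunit of the break sensor with Mre11 (-0.33 ± 0.09, adjusted p = 0.0136). Of these 8 genes, Cetn2 (1.08) and Polm (-0.48) passed with the spot median too. In that setting Trp53bp1 differed by 0.30 and Nbn by -0.033.

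By pathway, 6 of 11 other nucleotide excision repair genes were higher in tumors (54.5%, against 25.9% of all genes). Among them were the TFIIH subunits Gtf2h5 (0.41), Mnat1 (0.58), Gtf2h2 (0.29) and Ccnh (0.36). None of these 4 passed with the spot median, where Gtf2h5 differed by 0.18, Mnat1 by 0.12, Gtf2h2 by 0.17 and Ccnh by -0.27. In base excision repair 5 of 14 (35.7%) were higher, including Fen1, the flap endonuclease (0.55). There 1 was lower, Neil3 (-0.34), or 7.14% against 23.8% of all genes. Of the Fanconi anaemia genes 2 of 10 (20%) were higher and 1 (10%) was lower, both under the shares over all genes.

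Markers of other processes and cells moved between the same tissues, where 25.9% of all genes were higher in tumors and 23.8% lower. Of the proliferation markers, 8 of 18 (44.4%) were higher in tumors and 10 did not pass. Their summed linear intensity was 21435 to 28833 in tumors, against 17753 to 20637 in normals. The 8 included Pcna (0.58) and Mcm4 (0.77), which act at the replication fork. The mitotic kinases Plk1 (0.17) and Aurka (0.12) did not pass. Fibroblast markers were higher in 10 of 10 genes, with sums of 19938 to 45894 in tumors, against 8055 to 10317 in normals. Leukocyte markers were higher in 7 of 11 genes (63.6%) and lower in 2 (18.2%, under the share over all genes). Their sums were 17114 to 25743 in tumors, against 4816 to 8047 in normals. Smooth muscle markers were lower in 5 of 7 (71.4%). For comparison, the summed linear intensity of the 39 members was 24673 to 29660 in tumors, against 21968 to 22271 in normals. On the log2 scale, another measure, their mean deviation per array was -0.05 to 0.12 in tumors, against -0.13 to -0.11 in normals. The part of proliferating, stromal or immune cells in the repair gene differences was not tested.

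The calls depended strongly on how a spot was summarised. With medians, not means, over the pixels of a spot, 3 members were higher (Ercc2, 1.29; Apex1, 0.97; Polb, 0.86), against 9.32% of all genes, and 1 was lower (Ung, -1.14), against 9.55% of all genes. The deposited table, which rests on spot medians, gave 5 of 38 members higher (Ercc2, Parp1, Apex1, Polb and Chek1), or 13.2% against 11.9% of all genes, and Ung lower, against 10.3% of all genes. In both versions the members' share of higher calls was thus near the background (7.69% of members with the spot median). Ercc2, Apex1, Polb and Ung thus passed in all 3 versions, and Parp1, at 1.00 with the spot median, missed the threshold there (adjusted p = 0.052). Ercc1, Ercc3, Ddb1, Rev1 and Chek1 had differences of 0.39 to 0.49 with the spot median and did not pass, while Lig3, Brca1 and Msh6 were at 0.11 to 0.15 and Ddb2 at -0.28. The earlier scan session held 3 tumors and all 3 normals, but no tumor of mouse 43. With the mouse as a block, the normal of mouse 43 therefore added nothing to the difference. Within that session 7 members were higher (17.9%, against 11.3% of all genes) and 2 lower (5.13%, against 10.9%). Parp1 differed by 1.09, Ercc2 by 0.95 and Ung by -1.32. Without the 2 arrays rich in squamous genes, and with the mouse also left out of the model, 8 members were higher (20.5%, against 20.8% of all genes). That is the background share, and 2 were lower (5.13%, against 19.7%). With the tumors of each mouse averaged, so that the 3 animals were the replicates, 10 were higher (25.6%, against 18.9% of all genes) and 2 lower (5.13%, against 17.1%), the losses being Lig3, Exo1, Brca1 and Xpc.

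**Figure D4:**
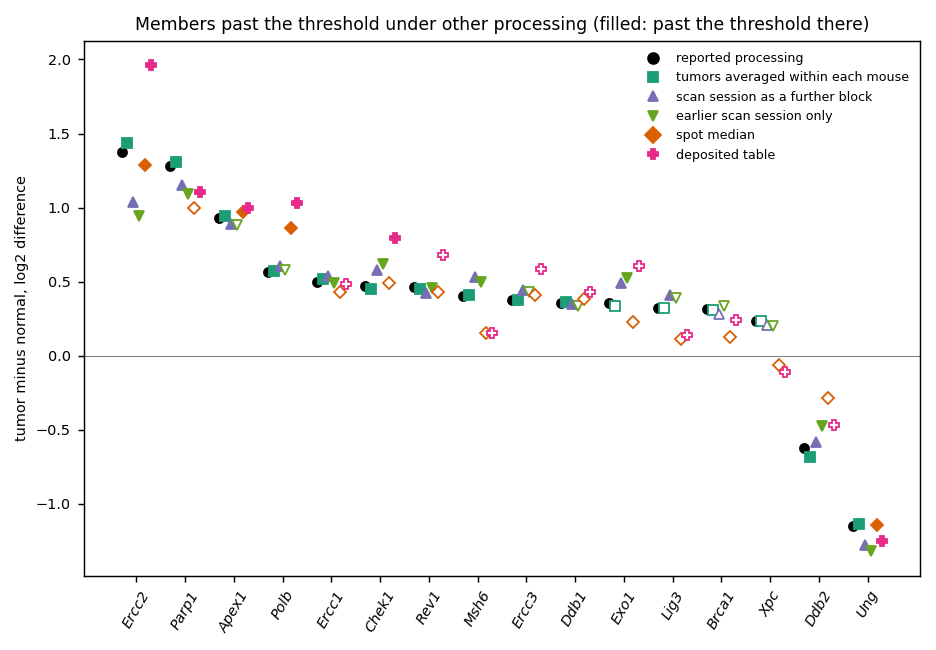
Tumor minus normal difference on the log2 scale (vertical axis) of the 16 members past the threshold under the reported processing and 5 alternatives, with a filled symbol where the adjusted p was under 0.05 in that setting. Ercc2, Apex1, Polb and Ung stay filled with the spot median, and Xpc crosses 0.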

How the data were processed

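The labels give 10 samples of 3 mice, each sample with 1 array. The arrays hold linear spot intensity values read with GenePix software, per the file headers, not normalized by the authors. The authors' deposited table holds 19327 probes, each equal to the background-subtracted median of a spot, scaled by 1 factor per array, by comparison with the scanner values (within 0.1% for at least 99.95% of probes). Its column medians were 110 to 119. The rule that selected its probes is not given in the sources here.

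Spot means were corrected with limma's normexp (offset 50), quantile normalized over gene probes and taken as log2; the deposited values were used as an alternative. Of 34312 gene probes, 22933 matched 1 symbol through RefSeq accessions, 5286 kept their accession, and those without an accession (6093) or marked bad (43) were left out. A probe was above background where it exceeded the 99th percentile of 432 null spots. A gene needed at least 3 arrays above background and was read by its brightest probe on average. Members' probes were also tested singly, in a fit of all kept probes. Array gene names follow GRCm38.p6; the build of the array design is not given there.

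The comparison of tumors with normals used limma (lmFit and eBayes, Benjamini-Hochberg), with a fixed block for the mouse, because every sample's animal is labelled. Deviations of the normal and of the mean tumor of 1 mouse had correlations of 0.11, -0.07 and -0.08 over genes. The values thus gave no clear sign of the pairing, which rests on the labels. Tumors of 1 mouse share that animal, and p-values measure the spread between these samples. The later scan session is the arrays that the headers put at a later scan time, which are also those redipped or rescanned; these cannot be told apart. The fit was tested on simulated data. Members, lists and tests were chosen with earlier results of these data known. All members are named, and of the other repair genes the 4 of lowest p in each direction; further ones were named after their values were seen, and some are not reported here. The alternatives tried were background correction, spot summary, normalization, filter, probe choice, block, scan session, the deposited table and left-out arrays or mice. Software was Python 3.11.15 with numpy 2.4.6, pandas 2.3.3 and matplotlib 3.10.9, and limma 3.58.1 in R 4.3.3.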

Additional observations from a re-analysis of the deposited data

Results flagged for a closer look

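In 4 of the 39 members, 1 of the 7 tumors lay far from the others by Dixon's ratio, the gap to the nearest tumor over the range of the tumors exceeding its 95% critical value. Chance alone gives that in about 1 in 20 groups. Brca2 was highest in the tumor of mouse 43, at a log2 intensity of 7.82 against 7.29 in the next tumor (ratio 0.734). Chek2 was highest in tumor 3 of mouse 42, at 8.25 against 8.09 (ratio 0.729). Exo1 was highest in the same tumor, at 7.02 against 6.73 (ratio 0.626). Xpc was lowest in tumor 3 of mouse 41, at 8.12 against 8.23 (ratio 0.594).

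In 3 members that did not pass, all 3 tumors of mouse 42 lay on the other side of their own normal from all 3 tumors of mouse 41. These differences were not tested. For Mutyh the mean tumor minus normal was -0.04 in mouse 42 and 0.12 in mouse 41, a gap of -0.15. For Polh it was 0.12 in mouse 42 and -0.10 in mouse 41, a gap of 0.22. For Rad23b it was 0.25 in mouse 42 and -0.04 in mouse 41, a gap of 0.28.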

How the results depend on the processing

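The 14 members higher and 2 lower were recounted under 27 alternatives. Of these, leaving out mouse 43, its normal or its tumor gave 1 and the same fit, counted 3 times. Leaving out the normal of mouse 41 or mouse 42 gave the same differences as leaving out that mouse, with other p-values. Members higher numbered 3 with spot medians, 5 in the deposited table and 7 in the earlier scan session. They numbered 8 without the 2 arrays rich in squamous genes and with the mouse left out of the model. There were 9 without mouse 41 (23.1%, against 21.3% of all genes) and 8 without mouse 42 (20.5%, against 14.2%), but 17 with median scaling (43.6%, against 29.0%). Members lower numbered 1 in the deposited table and 1 with spot medians. The mean over the probes of a gene gave 11 higher (28.2%, against 25.9% of all genes, so near the background). It gave 3 lower (7.69%, against 24.4%), Gtf2h1 (-0.24) being added. The members' median difference of 0.12 was 0.068 in the earlier session, 0.18 in the deposited table and 0.26 with median scaling, where all genes had 0.068. Leaving out 1 array gave 10 to 15 higher (25.6% to 38.5%, against 17.7% to 26.8% of all genes). In each of these fits 2 were lower (5.13%, against 16.6% to 24.1%). Without the mouse as a replicate block 15 were higher (38.5%, against 25.3% of all genes), Rad18 being added, and 2 lower (5.13%, against 23.6%). Ercc2 and Ung were called in all 27 alternatives, Apex1, Parp1 and Polb in 26, and Exo1 (16 of 26), Lig3 (15), Xpc (14) and Brca1 (10) in the fewest. Each alternative read 1 probe of a gene or the mean of its probes. The counts therefore do not settle the direction of Ercc2, whose probe mMC017760 was lower in tumors (-0.21). Called values that changed sign were Xpc (spot median -0.063, deposited table -0.11), Ccnh (-0.27 and -0.29 in the same settings), and, as means of probes, Exo1 (-0.059) and Gtf2h2 (-0.011). The causes were not tested. Dim genes such as Exo1 limit what can be read. With plain subtraction of the local background, without normexp and its offset, its difference was 0.95.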
